A study of Mus musculus with 14 samples.

Results

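The response described here is that of the mouse mammary gland to 17β-estradiol (E2) when the estrogen receptor blocker acolbifene was given at the same time. It was read as the difference between the 2 arrays of E2+acolbifene and the 2 arrays of acolbifene alone, so that acolbifene is the baseline and no vehicle array enters. These are 4 of the 14 arrays of the series. Female C57BL/6 mice, 11 to 12 weeks old on arrival, were ovariectomized 7 days before a single treatment and killed 3 h after it. Each group held 8 mice, and the glands of a group were pooled before RNA extraction. The other 2 groups used are the vehicle group (2 arrays) and the group given E2 alone (2 arrays), which show the response to E2 without the blocker. All 4 groups had their ovaries removed, and no dose is printed because the sources used here do not give that of acolbifene and leave the unit of the E2 dose in doubt. The names of the raw files of the 2 acolbifene arrays, and of the 2 E2+acolbifene arrays, differ only in a repeat mark, so the arrays of a group may come from 1 pool of RNA. The p-values then measure the spread between arrays, not between mice.

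Estradiol acts through estrogen receptor alpha (Esr1) and beta (Esr2), transcription factors that bind DNA at estrogen response elements or act through other factors bound to DNA, such as AP-1. Acolbifene is a selective estrogen receptor modulator that occupies the same pocket of the receptor and prevents the shape that recruits coactivators. In the mammary gland the receptor is found mainly in luminal epithelial cells and in stroma, and the progesterone receptor (Pgr) is its classic target. The gland of an ovariectomized mouse is mostly fat, with epithelial ducts, fibroblasts, vessels and macrophages, and a dissected gland can carry skin and muscle.

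The labelled tissue was checked against its markers. Adiponectin (Adipoq), a hormone of fat cells, lay at 14.01 and 13.98 on the acolbifene arrays and 13.93 and 13.82 on the E2+acolbifene arrays (all levels are log2 RMA values, in which 1 unit is a doubling). The luminal keratin Krt18 lay at 10.80 and 10.86 against 10.79 and 10.64, so fat and epithelium were present in both groups. One label asks for care: the raw-file names of the E2+acolbifene arrays share their sample code, though not their prefix, with that of the raloxifene array. Over 45037 probe sets the 2 E2+acolbifene arrays correlated at 0.997 with each other and at 0.996 and 0.996 with the raloxifene array. The tamoxifen array came next at 0.995 and 0.995. With the first acolbifene array they correlated at 0.993 and 0.991, and with the second at 0.994 and 0.993. For the vehicle arrays the values were 0.995 and 0.994, and 0.994 and 0.993. Single genes differed between them. Pgr lay at 9.41 on the raloxifene array against 9.62 and 9.60, and Krt4 at 7.87 against 8.37 and 8.17. Serpinb2 lay at 7.67 against 6.96 and 6.65, Cxcl5 at 7.35 against 5.96 and 6.00, and Actn2 at 6.37 against 7.79 and 7.70.

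The arrays of the 2 groups were not equally wide. The SD over probe sets was 2.01 and 2.00 on the acolbifene arrays but 1.93 and 1.90 on the E2+acolbifene arrays, with medians of 7.18 to 7.23 over all 4. In the deposited values this appears as a shift that depends on level. The median difference, E2+acolbifene minus acolbifene, was 0.09 in the third decile of mean level and −0.20 in the brightest, whereas in E2 minus vehicle it stayed between −0.04 and −0.01. Quantile normalization of the 8 arrays once more brought it between −0.02 and 0.00. Counts of calls under acolbifene are therefore given for the deposited values and, in most cases, for the re-normalized ones as well.

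**Figure D1:**
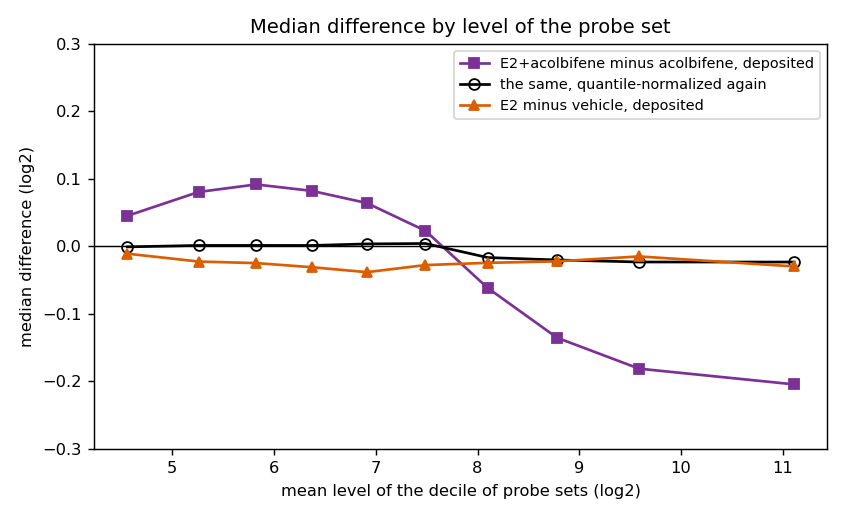
Median log2 difference (vertical axis) in each of 10 equal groups of probe sets ordered by mean log2 level (horizontal axis). Squares are E2+acolbifene minus acolbifene in the deposited values, open circles the same after renewed quantile normalization, and triangles E2 minus vehicle. The squares run from above 0 for dim probe sets to −0.20 for the brightest, and the other series stay near 0.

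On the deposited values 4142 of 45037 probe sets passed the test, an adjusted p under 0.05 in limma. Of them 1587 were higher with E2 (3.52% of those tested) and 2555 lower (5.67%). After renewed quantile normalization 1154 passed, 665 higher and 489 lower, so the split turned from mostly lower to mostly higher. With the same sign 999 probe sets passed on both scales, 525 higher and 474 lower, and 370 of these changed at least 1.5-fold. No probe set passed with opposite signs. The count rests on all 4 arrays. It fell to 38 without the second E2+acolbifene array, 437 without the first, 130 without the first acolbifene array and 969 without the second, each time with the lone array assumed to vary like the other groups. Fitted on the 4 arrays by themselves it was 1338, and with the replicate number as a block 2303.

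The largest fall was that of Serpinb2, plasminogen activator inhibitor 2, a protease inhibitor made by activated macrophages and stressed epithelium. Its level was 8.88 and 8.85 on the acolbifene arrays and 6.96 and 6.65 on the E2+acolbifene arrays, beside 6.61 and 6.80 with vehicle and 7.03 and 6.70 with E2 alone. Of these 4 groups the acolbifene arrays alone were high, and they did not overlap the others. Outside them, the array of E2+raloxifene lay at 8.87. It fell by 2.06 ± 0.13 (SE) on the log2 scale, or 4.16-fold, with an adjusted p of 0.000232. E2 alone changed it by 0.16 ± 0.13 (adjusted p = 0.537). The E2+acolbifene arrays lay 0.10 from vehicle, with a 95% interval of −0.18 to 0.39.

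The neutrophil-attracting chemokines Cxcl5, Cxcl2 and Cxcl3, ligands of the receptor Cxcr2, fell too. Cxcl5 lay at 7.74 and 7.56 with acolbifene and at 5.96 and 6.00 with E2+acolbifene, and fell by 1.67 ± 0.15 (adjusted p = 0.00102). Cxcl2 lay at 7.76 and 7.54 against 6.21 and 5.80, and fell by 1.65 ± 0.17 (adjusted p = 0.00182). Cxcl3 lay at 5.97 and 5.63 against 4.81 and 4.72, and fell by 1.04 ± 0.12 (adjusted p = 0.0039), below the level of 6.65 under which a probe set is called dim here and the size of a fold is not exact. With vehicle these 3 genes lay between 6.38 and 6.45, 6.02 and 6.32, and 4.62 and 4.84, so of the 4 groups acolbifene was the high one for each. The E2+raloxifene array lay at 7.72 for Cxcl5. Cxcl1, another ligand of that receptor, did not do the same. It lay between 8.97 and 9.17 on all 8 arrays, with a difference of 0.08 ± 0.09 (adjusted p = 0.585).

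The promoters of Cxcl1, Cxcl2 and Cxcl3 are shown because the 3 genes lie close together on chromosome 5 and their levels differed in what E2 did to them, and that of Serpinb2 because it fell most. They are the 250 bases before the transcription start, 5′ to 3′ on the gene's strand, from RefSeq on GRCm38.p6. Of 10 symbols looked up, 8 had an entry, and Cxcl5 and Krt4 had none. Capitals mark matches to the NF-kappaB motif in the 3 chemokine genes and to the AP-1 motif TGANTCA in Serpinb2, both strands searched. Where a gene has several starts the first listed was used, which applies to Serpinb2 with 2.
Cxcl1, chr5:90890995-90891244, plus strand: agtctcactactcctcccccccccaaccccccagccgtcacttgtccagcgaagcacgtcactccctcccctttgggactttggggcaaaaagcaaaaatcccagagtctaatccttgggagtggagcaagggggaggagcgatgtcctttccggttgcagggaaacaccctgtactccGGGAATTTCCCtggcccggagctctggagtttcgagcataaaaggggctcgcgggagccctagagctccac
Cxcl2, chr5:90903649-90903898, plus strand: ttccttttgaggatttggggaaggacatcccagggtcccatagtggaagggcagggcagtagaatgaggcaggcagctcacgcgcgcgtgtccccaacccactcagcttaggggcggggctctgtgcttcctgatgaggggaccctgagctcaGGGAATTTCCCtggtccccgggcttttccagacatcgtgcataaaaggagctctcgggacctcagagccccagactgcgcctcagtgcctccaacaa
Cxcl3, chr5:90785851-90786100, plus strand: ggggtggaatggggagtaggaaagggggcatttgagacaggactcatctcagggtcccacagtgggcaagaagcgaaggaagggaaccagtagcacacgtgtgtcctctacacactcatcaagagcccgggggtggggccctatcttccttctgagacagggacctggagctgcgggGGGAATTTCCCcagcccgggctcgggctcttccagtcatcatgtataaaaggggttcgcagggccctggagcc
Serpinb2, chr1:107511173-107511422, plus strand: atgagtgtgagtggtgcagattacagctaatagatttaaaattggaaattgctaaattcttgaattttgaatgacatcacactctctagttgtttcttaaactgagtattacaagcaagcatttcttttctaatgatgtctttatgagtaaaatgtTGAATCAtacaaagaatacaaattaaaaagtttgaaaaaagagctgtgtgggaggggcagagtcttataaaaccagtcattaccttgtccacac
The same capital letters stand in Cxcl1, which did not pass the test, as in Cxcl2 and Cxcl3, which fell. In each the match is 2 overlapping hits, on opposite strands, and it starts 71, 97 and 73 bases before the start. The Serpinb2 match starts 94 bases before its start. Over 32851 promoter windows of this length, 7.25% held the NF-kappaB motif and 6.75% the AP-1 motif. A match describes the letters only.

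Of the chemokine and inflammation list, 26 genes were measured and 10 fell while none rose, against 7.82% of all genes lower and 3.77% higher (each gene read by its brightest probe set). On the re-normalized values 8 fell and none rose, against 1.08% and 1.93%. The list's median was −0.28, and that of all genes −0.04 (−0.23 and 0.00 re-normalized). Saa3, an acute-phase protein of inflamed tissue, lay at 11.44 and 11.26 against 10.11 and 9.73, and fell by 1.43 ± 0.17 (adjusted p = 0.00396). The cytokine Il1b lay at 8.80 and 8.36 against 7.46 and 7.97, and fell by 0.86 ± 0.16 (adjusted p = 0.0187). Cxcl9, Ccl7 and Ccl3, ligands that draw lymphocytes and monocytes, fell by 0.56, 0.54 and 0.41 and passed on both scales. Ccl2 and Ptx3, at −0.45 and −0.42, passed on the deposited values only. With E2 alone 6 of the 26 rose and none fell (5 and none re-normalized), against 2.35% of all genes higher and 1.6% lower. Ptx3 rose by 1.49 there and Ccl7 by 0.66. The difference between the effects passed for 9 on either scale, all negative. Over all 18193 genes 644 differences were negative and 287 positive (314 and 165 re-normalized). Under acolbifene Tnf at 0.07, S100a8 at −0.07 and S100a9 at −0.05 did not pass. Between 3 and 8 members passed when any 1 of the 4 arrays was left out, the fewest without the second E2+acolbifene array.

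**Figure D2:**
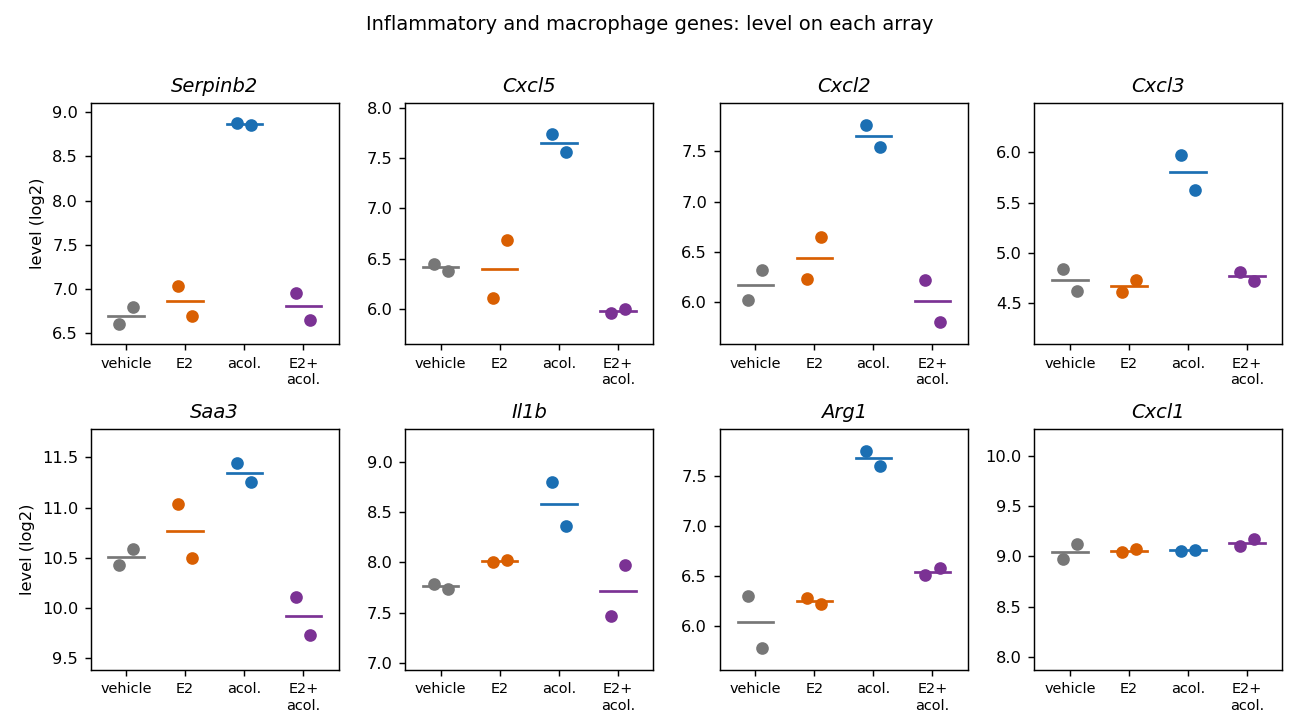
Log2 level (vertical axis, its own range in each panel) of 8 genes on every array of the 4 groups, as points, with the group mean as a bar. For 7 genes the acolbifene arrays lie above those of the other groups, and for Cxcl1 all 8 arrays lie between 8.97 and 9.17.

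Genes of macrophages, the resident phagocytes of the gland, moved the same way as the chemokines. Of 16 markers 10 fell and none rose (5 and none re-normalized), against the 7.82% of all genes lower (1.08% re-normalized). The median was −0.44 (−0.28 re-normalized), and all 16 differences were below 0. Itgam, the integrin CD11b of myeloid cells, lay at 9.11 and 8.92 against 8.21 and 7.78, and fell by 1.02 ± 0.13 (adjusted p = 0.0054). The Fc receptor Fcgr1 fell by 0.76, the lysosomal protein Cd68 by 0.59, the surface receptor Adgre1 by 0.55 and the scavenger receptor Cd163 by 0.54, on both scales. Csf1r, the receptor for the macrophage growth factor, gave −0.26 (adjusted p = 0.069). The mean log2 level of the list was 10.8 on both acolbifene arrays, 10.4 and 10.3 on the E2+acolbifene arrays, 10.5 on both vehicle arrays and 10.3 on both E2 arrays. The scale has no 0, and all 16 markers were measured. Fewer cells of a type and less RNA per cell cannot be told apart in pooled tissue, and the part of this shift in the fall of the chemokines was not tested. With E2 alone Cd68 fell by 0.60 (adjusted p = 0.00412). No marker passed without the first acolbifene array or without the second E2+acolbifene array.

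In other named falls acolbifene was also the highest of the groups given. Arg1, arginase of alternatively activated macrophages, lay at 7.75 and 7.59 against 6.51 and 6.58, and at 6.30 and 5.79 with vehicle. Il1rn, the natural antagonist of the interleukin 1 receptor, lay at 8.25 and 8.39 against 7.21 and 7.32 in 1 probe set, while its other probe sets gave −0.30 and −0.14. C1qtnf3, a hormone of fat tissue, lay at 6.71 on both acolbifene arrays, at 5.20 and 5.16 with E2+acolbifene and at 4.92 and 4.49 with vehicle. Chl1, a neural adhesion molecule, fell by 1.37 ± 0.12, although 1 of its other probe sets gave 0.34 (adjusted p = 0.107). Its remaining 2, at −0.50 and −0.43, passed as lower on the deposited values (adjusted p = 0.0478 and 0.0330). Mup10 fell by 1.44 ± 0.17, but it belongs to a family of near-identical genes that a probe set may not separate. Slfn4, a myeloid gene, and Ppp1r3b, a glycogen-targeting subunit of protein phosphatase 1, fell as well. Slfn4 lay at 10.97 and 10.95 against 9.49 and 9.36, below the vehicle arrays at 10.38 and 10.56. Ppp1r3b lay at 11.39 and 11.22 against 10.29 and 10.16, with vehicle at 11.11 and 10.95, and with E2 alone it fell by 0.53 ± 0.10 (adjusted p = 0.0163). The comparison of acolbifene with vehicle shares the acolbifene arrays with the falls above, so their levels are given side by side only. Matrix genes fell in part, 6 of 15 fibroblast markers (2 re-normalized), against 7.82% of all genes lower (1.08% re-normalized). Timp1, an inhibitor of metalloproteinases, at −0.85 and the collagen cross-linking enzyme Lox at −0.60 passed on both scales.

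Genes of the cornified epidermis were among the largest rises. Krt77, a keratin of skin, lay at 6.62 and 6.77 with acolbifene and 7.98 and 8.11 with E2+acolbifene, a rise of 1.35 ± 0.11 (adjusted p = 0.000759). Lor, loricrin of the cornified envelope, lay at 4.79 and 4.84 against 6.53 and 6.10, a rise of 1.5 ± 0.15 (adjusted p = 0.00169) in a dim probe set. Its brightest probe set rose by 0.55, and another gave 0.01 (adjusted p = 0.973). Of 12 keratinocyte markers 6 rose and none fell (5 and none re-normalized), against the 3.77% of all genes higher (1.93% re-normalized), with a median of 0.40. When 1 array was left out 2 to 5 rose, with 2 left without the first acolbifene array or the second E2+acolbifene array. Krt10, the keratin of suprabasal cells, lay at 7.52 and 7.31 against 8.51 and 8.44, and Krtdap, a peptide of differentiating keratinocytes, at 5.95 and 6.09 against 7.36 and 7.22. Flg and Ivl, at 0.14 and −0.22, did not pass. For Krt77, Lor, Krt10 and Krtdap the vehicle arrays lay between the 2 groups compared. E2 alone changed Krt77 by 0.18, Lor by 0.12, Krt10 by 0.36 and Krtdap by 0.21, none of which passed. The mean level of the whole list was 6.35 and 6.39 with acolbifene, 6.88 and 6.81 with E2+acolbifene, 6.55 on both vehicle arrays and 7.09 and 6.97 with E2 alone. The list includes Krt4, which is 1 of the 6 rises. Krt4 rose by 1.08 under acolbifene and by 3.62 with E2 alone, so the list mean does not measure skin alone. How much skin each pool held was not tested.

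Genes of skeletal muscle were also among the largest rises. Actn2, the actinin of the Z disc, lay at 6.38 and 6.25 against 7.79 and 7.70, a rise of 1.43 ± 0.13 (adjusted p = 0.00102). Apobec2, a muscle protein, lay at 6.14 and 6.11 against 7.46 and 7.42, a rise of 1.32 ± 0.15 (adjusted p = 0.0039), although its other probe set gave 0.15. The fast myosin heavy chain Myh1 lay at 7.70 and 7.64 against 9.24 and 9.17, a rise of 1.54 ± 0.33 (adjusted p = 0.0278), and at 5.19 and 5.52 with vehicle. Myh2, another fast myosin, rose by 1.29 ± 0.31 (adjusted p = 0.0357), a call lost after renewed normalization (adjusted p = 0.0683). Myosin heavy chains are near copies, and 1 probe set may read several. Of 18 muscle markers 6 rose and none fell (4 and none re-normalized), against the same shares of all genes higher. The median was 0.76, and all 18 differences were above 0. When the 4 arrays were fitted by themselves 17 of the 18 passed, and when any 1 of the 4 arrays was left out of the main fit none or 1 did. The mean log2 level of the list was 9.47 and 9.46 with acolbifene and 10.3 and 10.2 with E2+acolbifene. It was 9.27 on both vehicle arrays, and the 2 arrays of E2 alone stood apart at 9.0 and 10.2. How much muscle each pool held was not tested.

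**Figure D3:**
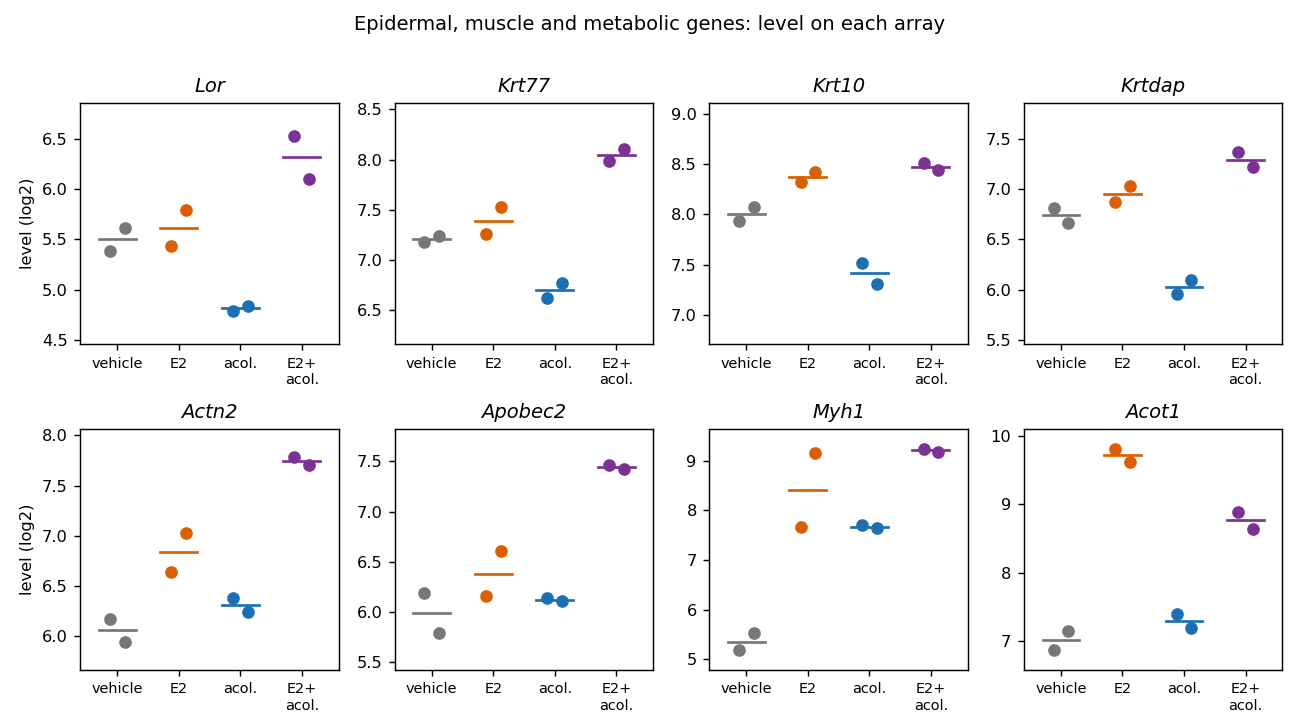
Log2 level (vertical axis, its own range in each panel) of 8 genes on every array of the 4 groups, as points, with the group mean as a bar. In all 8 panels both E2+acolbifene arrays lie above both acolbifene arrays. For Acot1 the E2 arrays are the highest.

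Some of the largest rises rest on 1 probe set of several. Cryl1 rose by 1.44 ± 0.19, but its other 3 probe sets gave −0.12 to 0.29, none passing as higher. Aldh2, mitochondrial aldehyde dehydrogenase, rose by 1.36 ± 0.18 with 4 others at −0.24 to 0.45. Aph1a, a subunit of gamma-secretase, rose by 1.35 ± 0.11 with 2 others at −0.39 to 0.36. Pik3cd, a catalytic subunit of phosphoinositide 3-kinase, rose by 1.29 ± 0.16 with 5 others at −0.48 to 0.59, of which 1 passed as higher. Those at −0.48, −0.39 and −0.37 passed as lower (adjusted p = 0.0234, 0.0315 and 0.0401). After renewed normalization none of these calls held, nor did that of the probe set at 0.59 (adjusted p = 0.111). Spaca3, a sperm acrosome protein, rose by 1.28 ± 0.23 with 1 other at 0.13. These 5 values describe the probe sets named, and except for 1 probe set of Pik3cd the others of these genes did not pass as higher.

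Several genes that E2 raised without the blocker still rose under it, by less. Acot1, a cytosolic acyl-CoA thioesterase, lay at 7.40 and 7.19 with acolbifene and 8.89 and 8.64 with E2+acolbifene, a rise of 1.47 ± 0.13 (adjusted p = 0.00102). Without acolbifene it went from 6.88 and 7.15 to 9.81 and 9.62, a rise of 2.70. The 2 rises differed by −1.23 ± 0.18 (adjusted p = 0.00874). Pgr lay at 8.81 and 8.38 against 9.62 and 9.60, a rise of 1.01 ± 0.16 (adjusted p = 0.0109), and without acolbifene at 8.05 and 7.57 against 10.59 and 10.55, a rise of 2.76. That difference was −1.75 ± 0.22 (adjusted p = 0.00498). Krt4, a keratin of stratified mucosa, rose by 1.08 ± 0.15 (adjusted p = 0.00871) under acolbifene and by 3.62 without it, from 7.19 and 7.2 to 8.37 and 8.17 and from 7.12 and 6.97 to 10.95 and 10.38. Its other probe set gave 0.40 under acolbifene (adjusted p = 0.110) and 2.73 without it. F3, tissue factor of the clotting cascade, rose by 0.75 against 2.27, and Smim38 by 0.60 against 1.90. Mfsd4a and Ccn1, a matricellular protein, rose by 0.53 against 2.08 and by 0.37 against 2.01. These 2 probe sets lost the call after renewed normalization (adjusted p = 0.0829 and 0.0653). Of the 3 other probe sets of each gene 1 passed, at 0.87 for Mfsd4a and 0.61 for Ccn1. It did so on both scales (re-normalized adjusted p = 0.0367 and 0.0436). The brightest probe set of each, at 0.19 and 0.22, did not pass. Mmd2 did not pass under acolbifene. It lay at 7.57 and 7.29 against 7.46 and 7.37, a difference of −0.02 with a 95% interval of −0.25 to 0.22, against a rise of 2.75 without it. With vehicle this probe set lay lower, at 6.35 and 6.52. The E2+acolbifene arrays lay 0.97 above vehicle, with a 95% interval of 0.73 to 1.21. The brightest probe set of Mmd2 gave 0.30 under acolbifene (adjusted p = 0.0741) and 1.89 without it. The difference between the 2 effects passed for Krt4, Pgr, Mmd2, Acot1, F3, Mfsd4a, Ccn1 and Smim38, for 1 probe set of Myh1, and not for Myh2. Of the 3 promoters of this group in the table, Pgr, Acot1 and F3, none held the palindromic estrogen response element, GGTCA and TGACC with any 3 bases between, in these 250 bases. Of all promoter windows 0.0639% did. The F3 window held 2 matches to the AP-1 motif, and those of Pgr, Acot1 and Saa3 held none of the 3 motifs.

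The 10 genes that E2 lowered most without the blocker gave values nearer 0 under it. Tmprss2, a protease of luminal cells, fell by 0.46 against 1.33, the amino acid transporter Slc7a2 by 0.44 against 1.2, and Dixdc1, of Wnt signalling, by 0.42 against 1.14. Fgfr2, a growth factor receptor of mammary epithelium, fell by 0.42 against 1.07, and the desaturase Scd2 by 0.40 against 1.00. None of these 5 passed after renewed normalization (adjusted p = 0.0504 to 0.212), although another probe set of Tmprss2, at −0.69, passed on both scales. Foxa1, the pioneer factor of luminal cells, lay at 10.52 and 10.40 with acolbifene and 10.04 and 9.85 with E2+acolbifene, a difference of −0.51 ± 0.18 that did not pass (adjusted p = 0.0914). It went from 10.38 and 10.52 with vehicle to 8.56 and 9.29 with E2, and the 2 effects differed by 1.01 (adjusted p = 0.0502). Mtmr7 (−0.70, adjusted p = 0.0699) and Lratd1 (−0.34, adjusted p = 0.217) did not pass under acolbifene. Neither did Prol1 at 0.26 and the clock output gene Dbp at 0.02, for which E2 alone gave −1.15 and −1.0. For both the acolbifene arrays already lay below vehicle. Prol1, a dim probe set, lay at 5.44 and 5.80 with vehicle and 4.50 and 4.45 with E2. It lay at 4.51 and 4.56 with acolbifene and 4.83 and 4.76 with E2+acolbifene. The Dbp means were 8.90 with vehicle, 7.90 with E2, 8.21 with acolbifene and 8.23 with E2+acolbifene. Genes outside these 10 did not all give values nearer 0 under acolbifene: Ppp1r3b gave −1.08 under acolbifene and −0.53 without it, and the mucosal protein Dmbt1 −1.0 and −0.59.

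**Figure D4:**
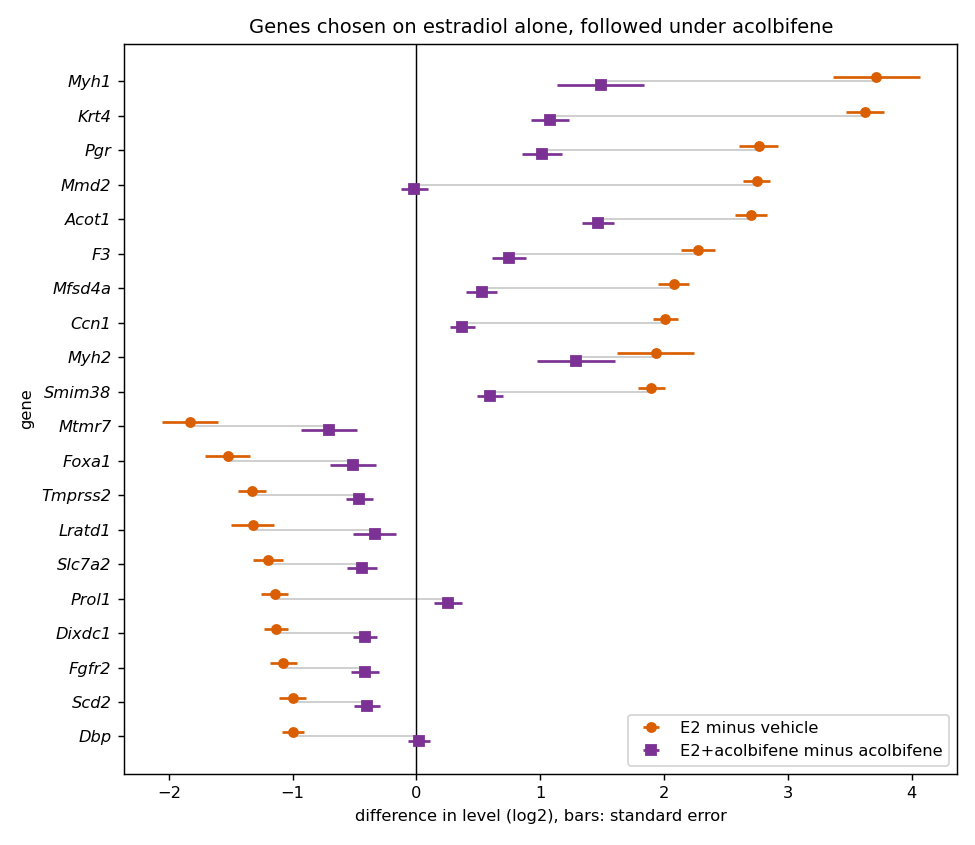
Log2 difference (horizontal axis) of 20 genes (vertical axis), the 10 that rose most and the 10 that fell most with E2 alone, as circles for E2 minus vehicle and squares for E2+acolbifene minus acolbifene, with standard errors as bars. All 20 squares lie nearer 0 than their circles, which the choice of genes by the circles favours, as for Mmd2 at −0.02 against 2.75 and Acot1 at 1.47 against 2.70.

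These 20 genes were picked as the extremes of E2 alone, and extremes of 1 comparison tend to lie nearer 0 in another, so no more is read from their order. All probe sets that E2 changed without the blocker were chosen on arrays that the comparison under acolbifene does not use, but by their values in E2 alone as well. E2 alone changed 1685 probe sets (1720 re-normalized), and 479 with a term for the raw-file code, which is 1 code for all arrays used here except the first E2 array. The 933 raised by E2 alone had a median of 0.53 there and −0.04 under acolbifene, where 86 (9.22%) rose and 68 fell. For the 363 raised at least 1.5-fold the medians were 0.75 and 0.03, with 52 higher (14.3%) and 16 lower. The 752 lowered by E2 alone had medians of −0.47 and −0.12, and 125 of them (16.6%) fell while 11 rose. Over all probe sets the median under acolbifene was −0.01. After renewed normalization 1041 raised probe sets had a median of 0.00, with 65 higher and 20 lower, and 679 lowered ones −0.08, with 5 higher and 40 lower.

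Genes that passed in both E2 comparisons in the same direction numbered 171, which is 5.67% of the genes called under acolbifene and 14.2% of those called with E2 alone. Of all named genes 16.6% were called under acolbifene by any probe set in either direction. Of the 171 genes 68 rose and 103 fell, and 69 passed on both scales. The rises included 4 of the 18 skeletal muscle markers, and other genes of the sarcomere such as Tnnt1 and Mybpc1. The muscle level of each array is given above, and its part in these shared rises was not tested. Beside these, the rises included the water channel Aqp5 (0.70 under acolbifene, 1.77 without it), the iodide transporter Slc5a5 (0.75 and 0.99) and the prostaglandin transporter Slco2a1 (0.77 and 0.91). The falls included acetyl-CoA synthetase Acss2 (−0.89 and −1.0), the clock repressor Bhlhe40 (−0.66 and −0.62), and Cish, a feedback inhibitor of cytokine receptors (−0.59 and −0.61). The Aqp5, Slc5a5, Slco2a1, Acss2, Bhlhe40 and Cish calls held on both scales. Opposite signs were seen for 66 genes (5.49% of those called with E2 alone), and for 17 of them on both scales. Thbs1, an angiogenesis inhibitor, rose by 1.29 with E2 alone and fell by 0.53 under acolbifene, lying at 8.43 and 8.27 with vehicle, 9.57 and 9.71 with E2, 9.57 and 9.38 with acolbifene and 8.88 and 9.01 with both. Fkbp5, a glucocorticoid-induced chaperone of steroid receptors, rose by 0.81 and fell by 0.46. Its means were 9.81 with vehicle, 10.61 with E2, 10.90 with acolbifene and 10.44 with both, so the E2+acolbifene arrays stayed above vehicle. These probe sets of Thbs1 and Fkbp5 lost the fall after renewed normalization (adjusted p = 0.0658 and 0.104), while another of each kept it (adjusted p = 0.0360 and 0.0372).

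The effects of E2 with and without acolbifene differed for 2011 probe sets (4.47%), 697 with the larger value under acolbifene and 1314 with the smaller. After renewed normalization these were 1120, 365 and 755. Serpinb2 (−2.22), C1qtnf3 (−2.19) and Mup10 (−2.07) were among the largest negative differences, with Mmd2 (−2.77), Krt4 (−2.55) and Myh1 (−2.23). Among the positive ones were Ngp, a neutrophil granule protein (1.49), Prol1 (1.40), Spaca3 (1.39), Lor (1.39), Ranbp3 (1.28) and the muscle glycogen phosphorylase Pygm (1.24). The difference did not pass in the other probe sets of Prol1 (0.31), Spaca3 (0.43), Lor (0.21 and 0.32) and Ranbp3 (−0.06 and 0.05). Ngp lay at 7.40 and 7.54 with acolbifene and 8.44 and 8.24 with E2+acolbifene, and at 8.32 and 8.26 with vehicle.

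The receptors themselves did not pass. Esr1 lay at 10.81 and 10.66 with acolbifene and 10.58 and 10.54 with E2+acolbifene (−0.18 ± 0.09, adjusted p = 0.219), and Esr2 at 6.38 and 6.69 against 6.42 and 6.66. Of 21 nuclear receptors and coregulators 2 rose and none fell (3 and none re-normalized). Of all genes 3.77% were higher and 7.82% lower (1.93% and 1.08% re-normalized). The 2 that rose were Pgr and the orphan receptor Nr4a3, at 7.95 and 8.12 against 8.49 and 8.59. Of 26 known estrogen receptor targets Pgr rose and 4 fell (1 and 1 re-normalized), and the median was −0.10 (0.00 re-normalized). The share lower, 4 of 26, stands beside 7.82% of all genes. Greb1 at 0.24, Igf1 at −0.23, Ccnd1 at −0.22 and Tff1 at 0.12 did not pass. A dimmer probe set of Greb1 rose by 0.38 ± 0.09 (adjusted p = 0.0331), beside 0.50 with E2 alone, and lost the call after renewed normalization (adjusted p = 0.0853). Among 13 luminal markers 2 rose and none fell, the tight junction gene Cldn4 (0.36) and Ly6d (0.38), both on both scales. Among 13 basal markers 2 rose and 1 fell (1 and none re-normalized), and Krt5 (0.53) rose on both scales. These counts are to be read against the same shares of all genes.

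Immediate-early genes, the first transcripts after a stimulus, rose with E2 alone for 13 of 30 with none lower, against 2.35% of all genes higher and 1.6% lower. Under acolbifene 1 rose and 6 fell, against 3.77% of all genes higher and 7.82% lower, and none passed after renewed normalization. The difference between the effects passed for 17, all negative, against 644 negative and 287 positive over all 18193 genes. Re-normalized, 14 rose with E2 alone and 10 differences passed, against 478 rises and 314 negative differences over all 18193 genes. Fos lay at 10.53 and 10.43 with acolbifene and 10.35 and 10.38 with E2+acolbifene, and at 10.49 and 10.46 with vehicle and 10.88 and 11.10 with E2. The glucocorticoid-responsive and metallothionein list was alike. With E2 alone 15 of 20 rose, under acolbifene none rose and 3 fell (none re-normalized), and 11 differences between the effects passed, all negative. Re-normalized, the rises with E2 alone were 15 and the differences 9. These counts are to be read against the same values for all genes, 7.82% lower for the 3 falls. The list's median relative to vehicle was 0.63 and 0.56 with E2, 0.63 and 0.52 with acolbifene and 0.47 on both E2+acolbifene arrays.

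In other lists the calls depended on the scale, and they are to be read against 7.82% of all genes lower and 3.77% higher (1.08% and 1.93% re-normalized). Of 17 interferon-response genes 11 fell (2 re-normalized, Stat2 and Irf7), with medians of −0.38 and −0.21. Of 24 chaperone and endoplasmic reticulum stress genes 11 fell, and 1 re-normalized, Hsph1, at −0.63. Fatty acid and triglyceride synthesis gave 8 of 20 lower and cholesterol synthesis 4 of 16, and none of either re-normalized. Ribosome biogenesis gave 5 of 24 (2 re-normalized). In adipocyte markers 2 of 10 fell and in endothelial markers 1 of 12, none of them re-normalized. Milk protein genes gave 1 higher of 11, Csn1s1 at 0.48 (Csn3 re-normalized), and cell cycle genes 3 lower of 24 (none re-normalized).

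The remaining lists gave few calls, several of them near those shares of all genes. Circadian clock genes gave 3 lower of 17 (2 re-normalized, Bhlhe40 and Cry1) and IGF and insulin signalling 3 of 17 (1 re-normalized). Wnt, BMP and TGF-beta signalling gave 3 lower of 28 and angiogenic and vasoactive factors 3 of 20, none of them re-normalized. Growth factors of the EGF and FGF families gave 1 higher of 19 (none re-normalized), and fatty acid oxidation and lipolysis 1 of 17 on both scales, Acot1. Lymphocyte markers gave 2 lower of 15 and markers of nerve 2 of 7, none re-normalized. Among 10 neutrophil and mast cell markers Ngp rose, by 0.86, and Csf3r, the receptor for the neutrophil growth factor, fell by 0.55, the latter on both scales. Of 9 brown fat and 5 erythroid markers none passed on either scale.

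**Figure D5:**
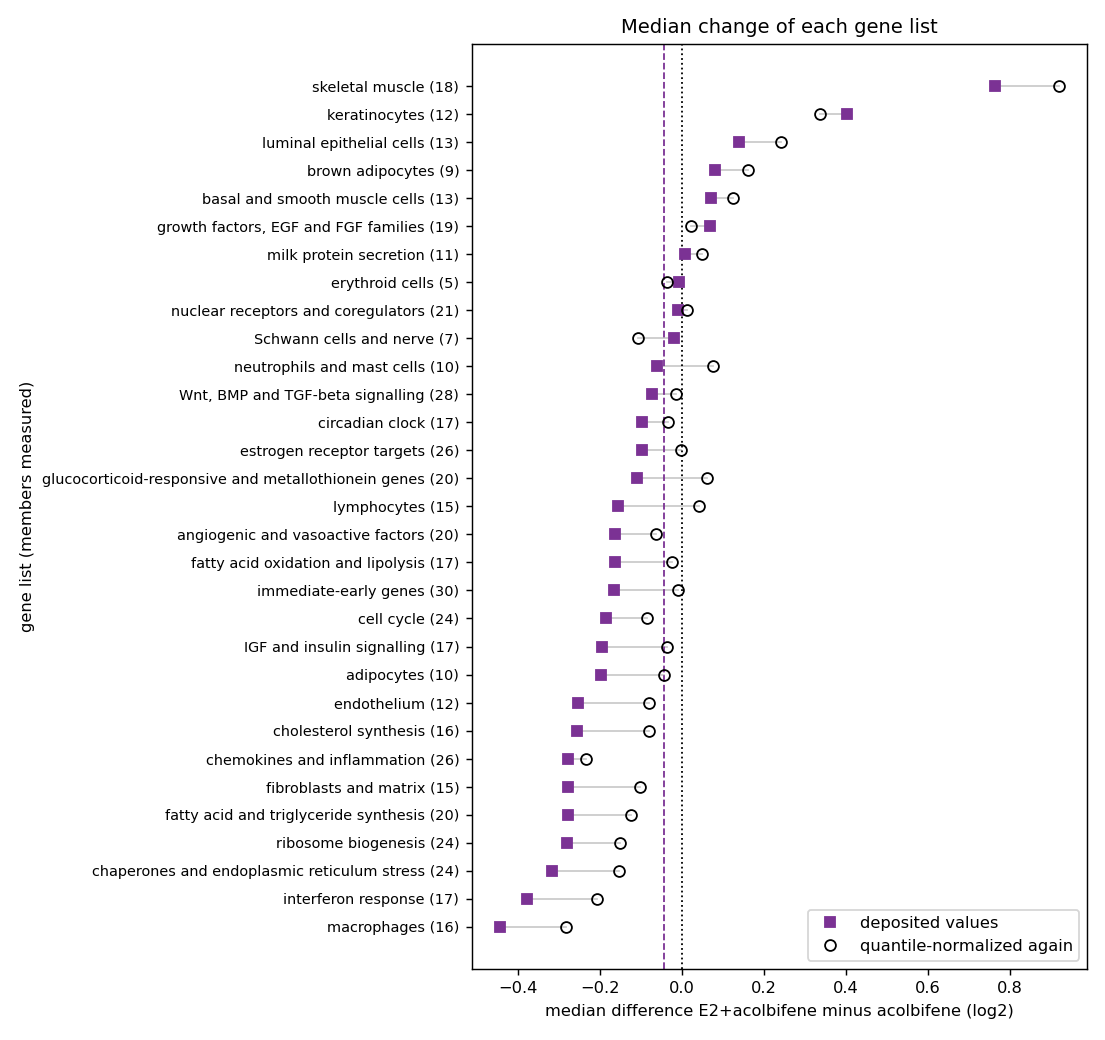
Median log2 difference, E2+acolbifene minus acolbifene (horizontal axis), of each gene list (vertical axis, number of members measured in brackets), as squares for the deposited values and open circles after renewed quantile normalization. The dashed and dotted lines are the medians of all genes on the 2 scales. Skeletal muscle (0.76) and keratinocytes (0.40) lie highest and macrophages (−0.44) lowest.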

How the data were processed

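The values were the log2 expression levels deposited by the authors, from RMA according to the submitters' processing notes, version not given in the sources used here. RMA compresses weak signals, so the folds of dim probe sets are understated. The labels name Murine U74Av2 arrays, but the deposited probe sets are those of the Mouse Genome 430 2.0 array. Genes were named through the platform annotation: of 45037 probe sets, after 64 controls were left out, 34945 had 1 symbol, 932 several and 9160 were unnamed here. Symbols were checked against RefSeq of GRCm38.p6, and 0 changed. From each group 20 ug of RNA was labelled per array, and the 2 arrays per group limit the precision.

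The test was limma 3.58.1 in R 4.3.3 (lmFit, eBayes, Benjamini-Hochberg over all probe sets, adjusted p under 0.05) on the 8 arrays of 4 groups, with no other term. Replicate numbers were not taken to pair the arrays, since deviations of same-numbered arrays correlated between −0.12 and 0.12. With 2 arrays against 2, an exact permutation test of one gene cannot go below 0.333. The limma code was tested on simulated data.

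Named genes were the 12 largest rises and 12 largest falls among calls with 1 symbol and groups that did not overlap. To these come the 6 largest differences between the effects each way (no overlap criterion) and the 10 largest changes each way of E2 alone. Also named were genes called in both E2 comparisons, list members, Esr1, Esr2 and Pgr. A named gene was read by its most changed probe set, and a list member by its brightest over the 14 arrays. The 17 pathway and 14 marker lists (533 genes, 501 measured) and the comparison itself were chosen with earlier results of these data known. Renewed quantile normalization of the lists and its fit on 4 arrays were added after seeing the data. Dim means below the 40 percentile of mean level.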

Additional observations from a re-analysis of the deposited data

Results flagged for a closer look

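The effect of E2 under acolbifene differed from its effect without acolbifene for 2011 probe sets (limma, adjusted p under 0.05 for the difference itself). The named probe sets were chosen by the size of 1 of these effects or of their difference. That choice favours the signs given here, so no more is read from the signs. Among the named probe sets the difference, with minus without acolbifene on the log2 scale, was negative for the inflammatory and other genes that fell: −2.22 for Serpinb2, −2.19 for C1qtnf3, −2.07 for Mup10, −1.91 for Cxcl2, −1.69 for Saa3, −1.66 for Cxcl5, −1.46 for Chl1, −1.33 for Arg1, −0.98 for Cxcl3 and −0.94 for Il1rn. It was negative too for genes that E2 raised without the blocker. These were Mmd2 (−2.77), Krt4 (−2.55), Myh1 (−2.23), Pgr (−1.75), Ccn1 (−1.64), Mfsd4a (−1.55), F3 (−1.52), Smim38 (−1.30) and Acot1 (−1.23).

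The difference was positive for genes that E2 lowered without the blocker: Prol1 (1.40), Dbp (1.02), Lratd1 (0.99), Tmprss2 (0.87), Slc7a2 (0.76), Dixdc1 (0.72), Fgfr2 (0.66) and Scd2 (0.60). It was also positive for Ngp (1.49), Spaca3 (1.39), Lor (1.39), Ranbp3 (1.28), Pygm (1.24), Krt77 (1.16), Apobec2 (0.93) and Aph1a (0.79). Some of these genes have other probe sets, none of which passed for the difference. They are Chl1, Il1rn, Pgr, Myh1, Prol1, Slc7a2, Dixdc1, Scd2, Spaca3, Lor, Ranbp3, Apobec2 and Aph1a. For Serpinb2, Cxcl2, Cxcl5 and Cxcl3 the E2 arrays lay near the vehicle arrays, and the acolbifene arrays were the high ones.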

How the results depend on the processing

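The count of 4142 probe sets under acolbifene was 1338 on the acolbifene and E2+acolbifene arrays alone, 7219 with an intensity trend, 1154 after renewed quantile normalization (338 with the 4 arrays alone) and 474 for at least 1.5-fold with an unadjusted p under 0.01. Leaving out 1 array gave 38 to 3367. The 1685 with E2 alone became 479 with a term for the raw-file code, whether over 8 or 14 arrays, 2720 with the trend, 552 by the fold rule, and 430 to 1615 with 1 array left out. The 2011 differences became 1113 with the code, 4176 with the trend, 1120 re-normalized, 3153 with arrays centred on their medians, and 186 to 1444 with 1 array left out. With a replicate block, in a paired fit although the numbers were not shown to pair the arrays, the 3 counts were 2303, 1354 and 1193. The median of the raised set was 0.030 for the 1.5-fold set, and −0.068 to 0.073 with 1 array left out. That of the lowered set was −0.17, −0.14 without dim probe sets, −0.078 re-normalized, and −0.18 to −0.11 with 1 array left out. The cause was not tested. Of 38 named probe sets called under acolbifene, 13 passed in every alternative: Acot1, Actn2, Aph1a, Apobec2, Chl1, Cxcl2, Cxcl5, Il1rn, Krt77, Lor, Mup10, Ppp1r3b and Serpinb2. The other 25 lost the call in at least 1, and none turned its sign.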
